A study of Homo sapiens with 12 samples.

Results

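The genes described here lie on the short arm of human chromosome 5, 5p. Of 41 listed 5p genes, 38 were kept because their deposited FPKM (fragments per length of transcript and sequencing depth) averaged at least 0.5 over the 4 DMSO libraries. They are 38 of the 57773 genes of the deposited table. PRLR stood just inside that floor at 0.871 FPKM and GHR just outside it at 0.348 FPKM, and CTNND2 (0.147 FPKM) and EGFLAM (0.121 FPKM) also fell below it. The list was chosen by where the genes lie and with line differences of these data known, and kept genes were selected on their FPKM in DMSO, so counts over the list are read only beside the same counts over all genes. The rule used the DMSO libraries, and the difference between the lines in DMSO is therefore given as a description: its fitted values and its count of called genes are printed, and nothing is read from them.

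The cells were U87, an established human glioblastoma line, either parental or a subline that the labels call JQ1-resistant. Each line had been kept for 24 h in DMSO, the solvent, in 1000 nM JQ1 or in 1000 nM dBET6, with 2 polyA RNA libraries for each of the 6 groups and 12 libraries in all. Nothing in the labels says how the resistant line was made or whether it is 1 clone. They also do not say whether the 2 libraries of a group came from separate cultures. A p-value here speaks only of the spread among these libraries, estimated for each gene with help from the other genes. No DNA was measured here, and in bulk RNA a higher level in every cell cannot be told apart from a larger share of cells with a high level.

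Tumour cell lines often carry extra or missing copies of whole chromosome arms, and the RNA of most genes on an arm tends to follow the number of its copies, while single genes can depart from that through their own regulation. JQ1 occupies the acetyl-lysine pockets of BET proteins, which link acetylated chromatin to transcription by RNA polymerase II. dBET6 carries a BET-binding group linked to a group that engages the ubiquitin ligase component cereblon, and causes BET proteins to be degraded.

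The libraries held 24732177 to 40388589 estimated counts. The 4 dBET6 libraries differed in make-up from the other 8: mitochondrially encoded mRNA took 3.19% to 3.94% of their counts against 1.46% to 2.70%, and their 50 top genes held 25.8% to 31.0% of counts, where the other libraries had 12.4% to 18.5%. These shares move with every dBET6 result below, and their part in those results was not tested. Among markers of the line, VIM (2908 to 11067 FPKM) and CD44 (242 to 628 FPKM) were high, GFAP was low (1.58 to 6.39 FPKM), SOX2 and OLIG2 did not exceed 1.66 and 0.706 FPKM, and CDKN2A, CDKN2B and MTAP, which U87 is known to have lost, did not exceed 0.144 FPKM. Of the markers of other cell types, those of endothelium summed to at most 0.324 FPKM, and PTPRC and CD3E of blood did not exceed 0.238 FPKM. The epithelial markers summed to 0.949 to 7.18 FPKM, with KRT8 at up to 6.30 and CDH1 at up to 2.96 FPKM. The neuronal markers summed to 4.29 to 12.7 FPKM, with SNAP25 at up to 10.6 and SYP at up to 5.36 FPKM. The neuronal sum was 10.0 to 12.7 FPKM in DMSO, 4.29 to 6.41 FPKM in JQ1, and 5.93 to 6.65 FPKM in parental and 10.4 to 11.6 FPKM in resistant dBET6 libraries, and the epithelial sum was higher in parental than in resistant libraries in DMSO and JQ1. The part of these in the results was not tested. The summed blood markers were 1.06 to 6.51 FPKM in dBET6 against 0.0335 to 0.372 FPKM in the other libraries, through CD14, which reached 6.14 FPKM.

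Most of the 38 genes had more RNA in the resistant than in the parental line in JQ1 and in dBET6. In JQ1, whose libraries the rule did not use, 34 of 38 were higher and 0 were lower by edgeR's quasi-likelihood test (Benjamini-Hochberg adjusted p under 0.05), against 16.8% higher and 19% lower among all 19093 genes tested. In dBET6, also outside the rule, 32 were higher and 0 lower, against 19.7% and 24.3% of all genes. In DMSO 36 were higher and 1 was lower, against 17.4% and 21.2% of all genes, and nothing is read from that count. These counts leave out the listed genes under the FPKM floor. Of those, CTNND2 went strongly the other way, at a log2 fold change of -6.87 in JQ1, -8.54 in dBET6 and -7.88 in DMSO. Its deposited FPKM was 0.244 to 0.873 in the parental and 0 to 0.107 in the resistant libraries. GHR stood at 0.28, 0.62 and -0.46 in the same order.

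The median log2 fold change of the 38 genes, resistant against parental, was 1.08 in JQ1 (2.12-fold), 0.84 in dBET6 (1.80-fold) and 1.09 in DMSO (2.13-fold), where the median over all genes tested was 0.01, -0.07 and 0.00. In JQ1, 31 of the 38 differences lay between 1.5-fold and 3-fold. All log2 fold changes are relative to the scaling of the libraries, here edgeR's TMM. With scaling to total counts or to the 13 mitochondrially encoded mRNAs the median of all genes moved as well, and the median of the 38 genes was 1.05 to 1.08 above it in JQ1, 0.90 to 0.91 above it in dBET6 and 1.08 to 1.09 above it in DMSO. A change of scaling moves all genes by nearly the same amount, so that gap is nearly fixed by construction and says nothing about stability. The count of called genes depended on the scaling: with mitochondrial scaling 21 genes were higher in JQ1 and 13 in dBET6, with BASP1 lower in JQ1 and NNT lower in dBET6.

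The 3 line differences share no library. 31 of the 38 genes were called higher in both JQ1 and dBET6, and 3 (IL7R, PRLR and CARD6) in neither. The same counts were not made over all genes, so nothing is read from them. Across the 38 genes the line differences in DMSO and JQ1 had a Pearson r of 0.77, those in DMSO and dBET6 0.67, and those in JQ1 and dBET6 0.64, and without IL7R the same values were 0.74, 0.73 and 0.57. These correlations are across genes, which are not independent replicates and share 1 fit and scaling, and are given as a description.

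**Figure D1:**
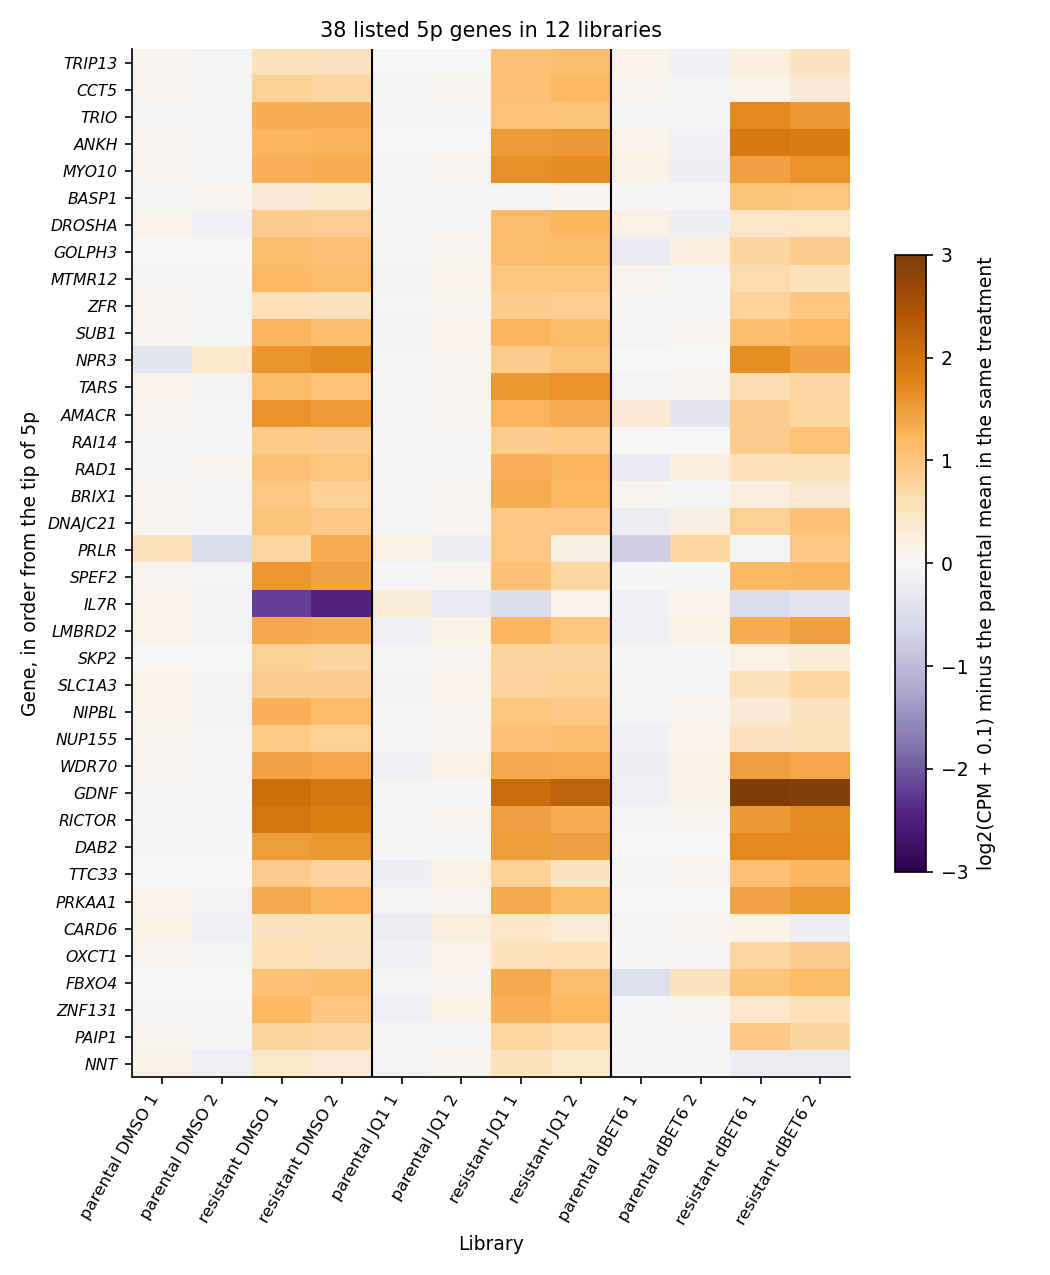
Each row is 1 of the 38 genes in order from the tip of 5p and each column 1 of the 12 libraries, and the colour is log2(CPM + 0.1) minus the parental mean in the same treatment. The resistant columns are shaded towards higher values in all 3 blocks for nearly all genes. IL7R, BASP1 in JQ1, and PRLR, CARD6 and NNT in dBET6 have at least 1 resistant library near or below the parental mean.

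The difference was not limited to the listed genes. The reference annotation places 68 other tested protein-coding genes on 5p. Of these, 52 were higher and 3 lower in JQ1, 45 and 2 in dBET6, and 53 and 3 in DMSO. Over all tested protein-coding genes 19.1% were higher and 22.4% lower in JQ1, 22.3% and 28.9% in dBET6, and 18.9% and 25.1% in DMSO. Of the 141 other tested 5p genes of all types, 79 were higher and 5 lower in JQ1, 64 and 3 in dBET6, and 80 and 5 in DMSO. The median log2 fold changes of the 68 genes were 0.98, 0.83 and 0.90. Among called genes whose average reached 10 CPM (counts scaled to library size), LIFR, the receptor of leukemia inhibitory factor, had the largest difference in JQ1 (1.89 ± 0.09), followed by ADAMTS16, a secreted metalloprotease (1.81 ± 0.15), and C5orf42, a ciliary protein (1.48 ± 0.32). CMBL, a hydrolase (0.24 ± 0.09), OSMR, the oncostatin M receptor (0.34 ± 0.08), and EXOC3, an exocyst subunit (0.70 ± 0.09), had the smallest.

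Arms were compared by the median over their tested protein-coding genes. With 108 such genes, 5p ranked first of 41 arms in each treatment, with medians of 1.03 in JQ1, 0.82 in dBET6 and 0.91 in DMSO. The arm was taken up with line differences of these data known, and the 108 genes include the 38. Its rank is therefore a description and lends no support. The next arm was 19p in each treatment, at 0.29, 0.28 and 0.32. The long arm of the same chromosome, 5q, had medians of 0.04, -0.09 and 0.02, which ranked 13, 21 and 11. The lowest arms were 4p, 4q and 21q, with medians between -0.69 and -0.89.

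**Figure D2:**
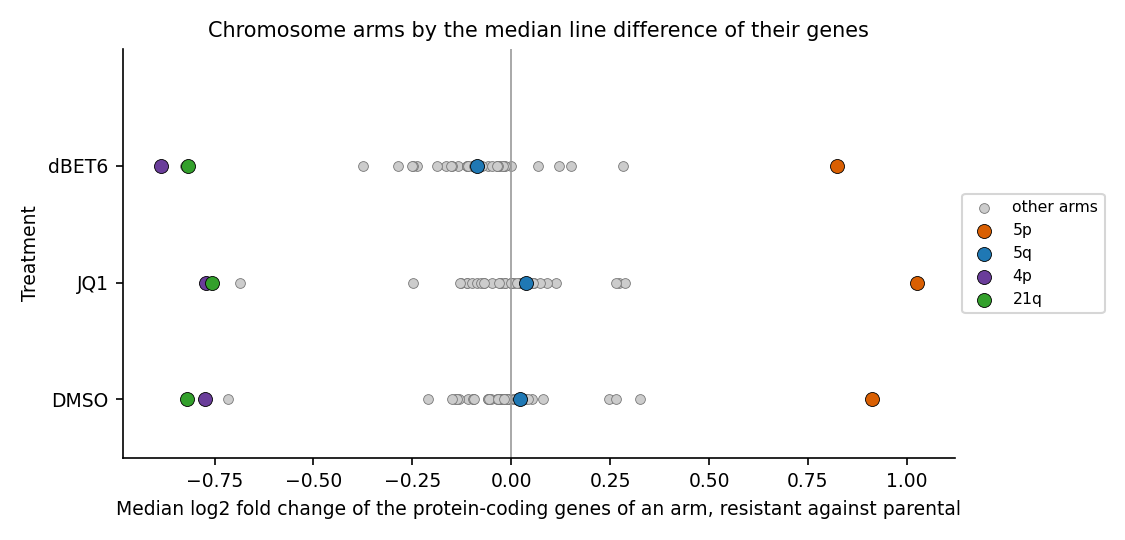
Each point is the median log2 fold change, resistant against parental, over the tested protein-coding genes of 1 chromosome arm, with 1 row per treatment. The point for 5p lies to the right of every other arm in all 3 rows (0.91 in DMSO, 1.03 in JQ1, 0.82 in dBET6), and 5q lies near 0. As 5p was taken up with line differences known, its place is a description.

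Along the arm, the 108 genes were divided into 6 groups of 18 in order from the tip. In JQ1 the medians of the 6 groups were 0.96, 0.97, 1.05, 1.05, 1.30 and 0.80. In dBET6 they were 0.78, 0.78, 0.99, 0.82, 1.37 and 0.56, and in DMSO 0.86, 0.91, 0.90, 1.13, 1.30 and 0.65. The fifth group, from NADK2 to CARD6, holds 10 of the 38 genes and was highest in each treatment, and the last group before the centromere was lowest. The first 18 genes of 5q had medians of 0.06, -0.01 and 0.10. Whether these groups differ from one another was not tested.

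**Figure D3:**
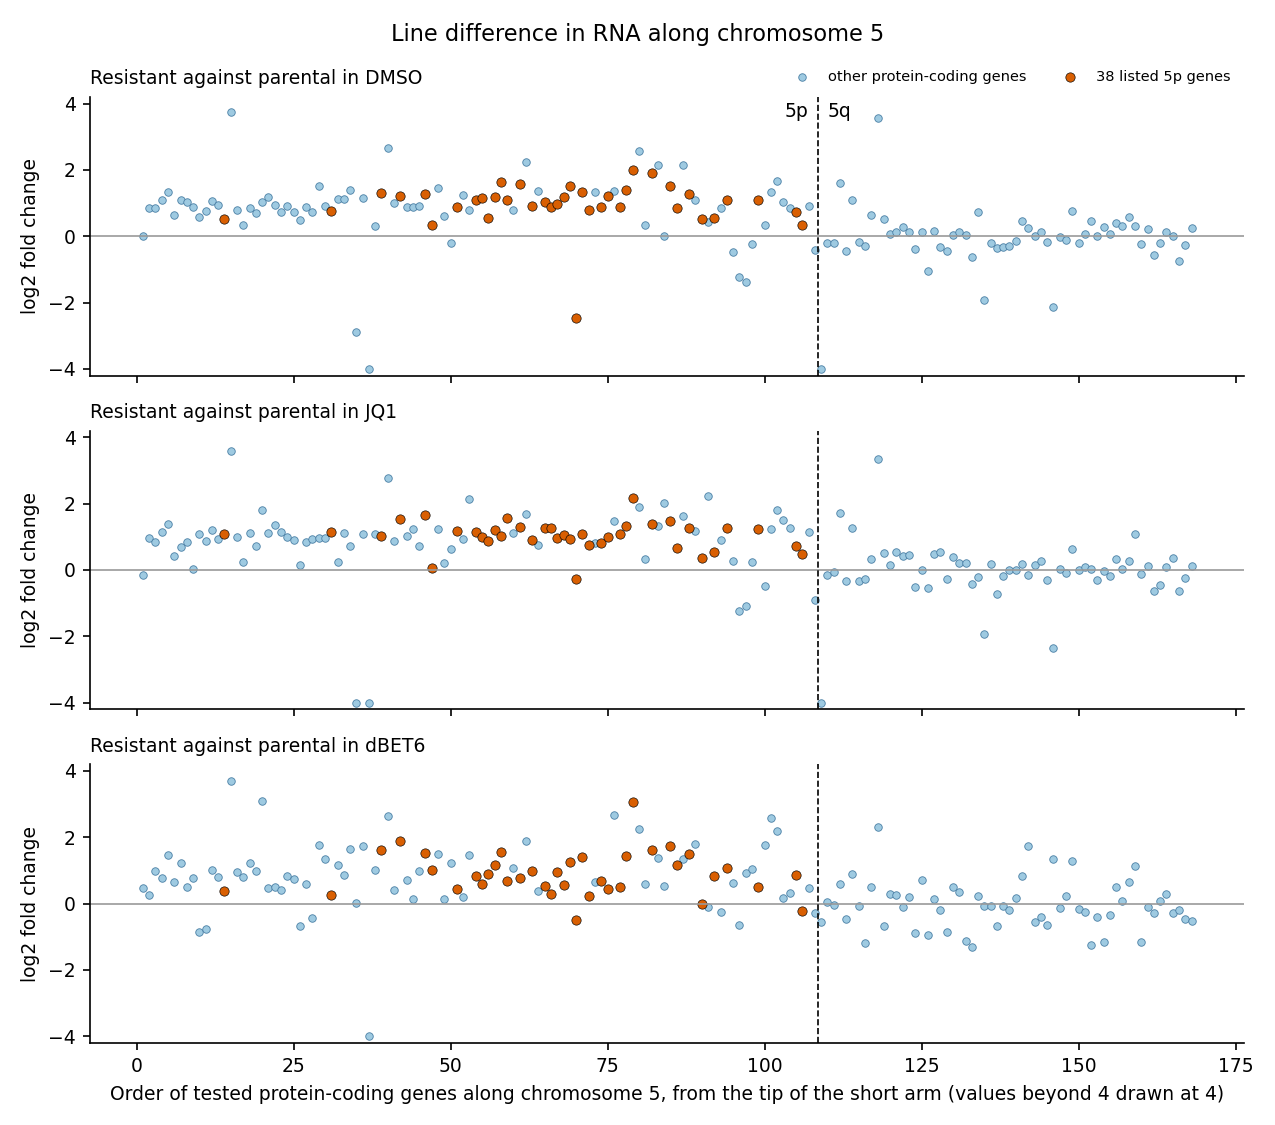
The vertical axis is the log2 fold change, resistant against parental, and the horizontal axis the order of tested protein-coding genes from the tip of 5p into the first 60 of 5q. In all 3 treatments the 5p genes sit mostly near 1 and the 5q genes near 0, with the step at the dashed line that marks the centromere. CTNND2, listed but under the FPKM floor, is drawn among the other genes. It sits at the lower limit of the axis, with values of -7.88 in DMSO, -6.87 in JQ1 and -8.54 in dBET6.

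The genes are described below by role. Of all tested protein-coding 5p genes, 79.6% were called higher in JQ1 and 71.3% in dBET6. Over all genes the shares were 16.8% and 19.7%. No role group was tested against the arm, and nothing is read from the counts within a group. The receptors and ligands spread most widely. GDNF, a secreted neurotrophic factor, stood at 9.25 and 8.81 CPM in the parental and 37.7 and 34.5 CPM in the resistant libraries in DMSO, at 7.96 and 7.64 against 33.2 and 37.3 CPM in JQ1, and at 1.997 and 2.49 against 19.9 and 17.6 CPM in dBET6. The lowest resistant library exceeded the highest parental library in each treatment, and the gap was widest in dBET6 as a ratio. The log2 line difference of GDNF was 2.17 ± 0.11 in JQ1 (adjusted p = 9.21e-15, edgeR quasi-likelihood test), 3.07 ± 0.15 in dBET6 (adjusted p = 5.86e-15) and 2.0 ± 0.11 in DMSO, the largest of the 38 genes in each of the 3.

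NPR3, the clearance receptor for natriuretic peptides, was expressed at a low level in DMSO and JQ1. It stood at 1.13 and 1.98 CPM in the parental and 4.70 and 4.996 CPM in the resistant libraries in DMSO, at 0.873 and 0.973 against 1.80 and 1.97 CPM in JQ1, and at 9.23 and 9.53 against 29.5 and 25.3 CPM in dBET6. Resistant libraries were higher in each treatment without overlap, and its line differences were 1.03 ± 0.24 in JQ1, 1.55 ± 0.16 in dBET6 and 1.64 ± 0.19 in DMSO. PRLR, the prolactin receptor, was near the limit of detection at 0.369 and 0.122 CPM in the parental and 0.440 and 0.693 CPM in the resistant libraries in DMSO, at 0.0998 and 0.0590 against 0.242 and 0.105 CPM in JQ1, and at 0.0476 and 0.311 against 0.137 and 0.374 CPM in dBET6. Its libraries overlapped in dBET6 and nearly touched in JQ1, and its line differences of 1.06 ± 0.85, 0.57 ± 0.92 and 1.17 ± 0.57 (JQ1, dBET6, DMSO) did not pass the test.

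IL7R, the interleukin 7 receptor chain, stood at 3.92 and 3.42 CPM in the parental and 0.720 and 0.598 CPM in the resistant libraries in DMSO, at 0.299 and 0.177 against 0.135 and 0.263 CPM in JQ1, and at 0.666 and 0.829 against 0.481 and 0.561 CPM in dBET6. In CPM the parental DMSO libraries were several times above all others, and the lines overlapped in JQ1 and lay close together in dBET6. The deposited FPKM of IL7R did not show that gap to dBET6. It was 2.10 and 1.82 in parental DMSO, 1.65 and 1.95 in parental dBET6, and 1.59 and 1.52 in resistant dBET6 libraries. The mean effective length of its counted transcripts was 1776 and 1765 bases in parental DMSO and 279 to 861 bases in the other libraries. The line difference of IL7R was -2.47 ± 0.28 in DMSO, and those in JQ1 (-0.28 ± 0.49, adjusted p = 0.71) and dBET6 (-0.51 ± 0.45, adjusted p = 0.388) did not pass edgeR's quasi-likelihood test.

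Of the 6 genes for kinases, lipid signalling and membrane traffic, 6 were higher in JQ1 and 6 in dBET6, with medians of 1.21 and 1.44. RICTOR, the defining subunit of mTOR complex 2, stood at 25.6 and 24.5 CPM in the parental and 97.8 and 89.4 CPM in the resistant libraries in DMSO, at 27.4 and 30.4 against 78.6 and 71.96 CPM in JQ1, and at 5.18 and 5.90 against 16.4 and 17.8 CPM in dBET6. The lines were separated in every treatment. Its line difference was 1.38 ± 0.09 in JQ1 (adjusted p = 2.38e-12, edgeR quasi-likelihood test), 1.63 ± 0.13 in dBET6 and 1.90 ± 0.09 in DMSO, the second largest of the list in DMSO. PRKAA1, a catalytic subunit of AMP-activated kinase, stood at 59.3 and 51.5 CPM in the parental and 139.7 and 128 CPM in the resistant libraries in DMSO, at 58.2 and 64.97 against 158 and 137 CPM in JQ1, and at 14.6 and 14.3 against 38.9 and 42.5 CPM in dBET6. No libraries of the lines overlapped, with line differences of 1.26 ± 0.09, 1.49 ± 0.11 and 1.27 ± 0.09 in JQ1, dBET6 and DMSO. 

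DAB2, a clathrin adaptor, stood at 64.03 and 61.3 CPM in the parental and 176 and 185 CPM in the resistant libraries in DMSO, at 85.3 and 88.6 against 245 and 239 CPM in JQ1, and at 8.28 and 8.29 against 27.4 and 27.5 CPM in dBET6. Both lines fell to their lowest level in dBET6, and the resistant libraries still lay above the parental ones. The line difference of DAB2 was 1.48 ± 0.08 in JQ1, 1.73 ± 0.11 in dBET6 and 1.52 ± 0.08 in DMSO. GOLPH3, a Golgi protein that binds phosphatidylinositol 4-phosphate, stood at 61.9 and 62.3 CPM in the parental and 134 and 131 CPM in the resistant libraries in DMSO, at 45.7 and 50.2 against 106 and 108 CPM in JQ1, and at 4.23 and 6.01 against 8.59 and 9.47 CPM in dBET6. The lines did not overlap, and the differences were 1.16 ± 0.09 in JQ1, 0.83 ± 0.15 in dBET6 and 1.09 ± 0.09 in DMSO. The inactive myotubularin MTMR12 was 1.00 ± 0.09 higher in JQ1 and 0.59 ± 0.13 in dBET6. LMBRD2, a membrane protein, was 1.09 ± 0.11 higher in JQ1 and 1.39 ± 0.14 in dBET6.

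**Figure D4:**
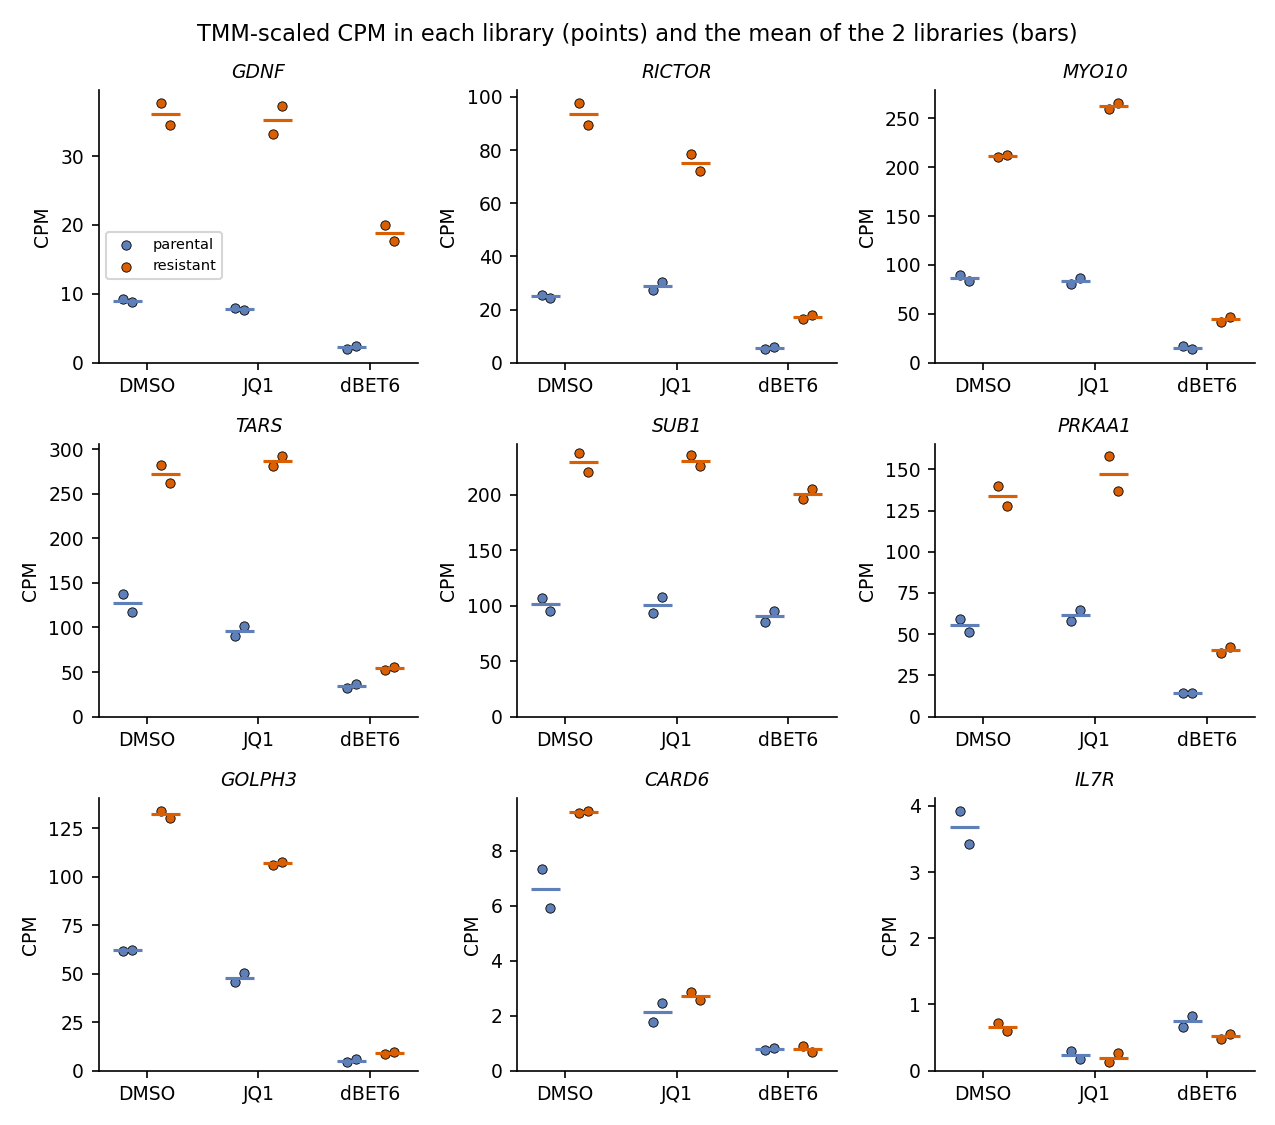
Each panel shows 1 gene, with the TMM-scaled CPM of each library as a point, the mean of the 2 libraries as a bar, and the treatments along the horizontal axis. Resistant libraries lie above parental ones for GDNF, RICTOR, MYO10, TARS, SUB1, PRKAA1 and GOLPH3 in all 3 treatments, CARD6 overlaps in dBET6, and IL7R is high in the 2 parental DMSO libraries.

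Among 7 genes of chromosome maintenance and transcription, 7 were higher in JQ1 (median 1.19) and 6 in dBET6 (median 0.50). SUB1, the transcriptional coactivator PC4, stood at 107 and 94.99 CPM in the parental and 237 and 220.3 CPM in the resistant libraries in DMSO, at 93.7 and 108 against 235 and 225 CPM in JQ1, and at 85.1 and 95.5 against 196 and 205 CPM in dBET6. Every resistant library lay above every parental one in each treatment, with line differences of 1.19 ± 0.09 in JQ1, 1.15 ± 0.09 in dBET6 and 1.18 ± 0.09 in DMSO. SUB1 also has processed pseudogenes, between which and the gene kallisto could divide reads.

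TRIP13, an ATPase of the spindle checkpoint, stood at 71.4 and 63.9 CPM in the parental and 99.7 and 95.8 CPM in the resistant libraries in DMSO, at 23.03 and 22.5 against 47.4 and 48.99 CPM in JQ1, and at 44.5 and 37.1 against 48.5 and 56.7 CPM in dBET6. Parental and resistant libraries did not overlap in any treatment. The line difference was 1.08 ± 0.10 in JQ1 and 0.53 ± 0.09 in DMSO, and 0.37 ± 0.10 in dBET6, where it lost its call without parental dBET6 library 2 (0.24) or resistant dBET6 library 2 (0.25) and was -0.16 with mitochondrial scaling. NIPBL, the cohesin loader, was 0.98 ± 0.09 higher in JQ1 and 0.43 ± 0.11 in dBET6. ZNF131, a zinc finger protein, was 1.23 ± 0.11 higher in JQ1 and 0.50 ± 0.13 in dBET6. For these 2 genes too the dBET6 value turned negative with mitochondrial scaling (-0.12 and -0.05).

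FBXO4, an F-box protein of a ubiquitin ligase, stood at 10.01 and 10.3 CPM in the parental and 21.5 and 22.1 CPM in the resistant libraries in DMSO, at 2.64 and 3.01 against 7.38 and 6.28 CPM in JQ1, and at 0.904 and 1.86 against 2.75 and 3.05 CPM in dBET6. Its libraries were separated, with line differences of 1.28 ± 0.17 in JQ1 and 1.09 ± 0.26 in dBET6, the latter without a call when parental dBET6 library 1 was left out (0.64). RAD1, a subunit of the DNA damage clamp, was 1.25 ± 0.10 higher in JQ1 and 0.53 ± 0.15 in dBET6, where its call was lost without parental dBET6 library 1 (0.30) and its sign turned with mitochondrial scaling (-0.03). SKP2, the F-box protein that targets the cell cycle inhibitor p27, was 0.76 ± 0.10 higher in JQ1, and its value of 0.23 ± 0.15 in dBET6 did not pass the test.

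All 6 genes of RNA processing and translation were higher in JQ1 (median 1.07) and 5 of 6 in dBET6 (median 0.77). TARS, the threonyl-tRNA synthetase, stood at 137 and 118 CPM in the parental and 283 and 262 CPM in the resistant libraries in DMSO, at 90.2 and 102 against 281 and 292 CPM in JQ1, and at 31.9 and 36.2 against 52.5 and 55.96 CPM in dBET6. The resistant libraries lay above the parental ones in each treatment, with the widest gap in JQ1. Its line difference was 1.58 ± 0.09 in JQ1 (adjusted p = 2.15e-13, edgeR quasi-likelihood test), 0.67 ± 0.10 in dBET6 and 1.10 ± 0.09 in DMSO. PAIP1, which binds poly(A)-binding protein and stimulates translation, stood at 77.3 and 72.1 CPM in the parental and 127 and 123 CPM in the resistant libraries in DMSO, at 53.97 and 57.4 against 93.3 and 88.4 CPM in JQ1, and at 17.5 and 18.4 against 34.9 and 30.3 CPM in dBET6. Here too the lines were separated, with differences of 0.71 ± 0.09, 0.86 ± 0.10 and 0.74 ± 0.09 in JQ1, dBET6 and DMSO.

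DROSHA, the nuclear nuclease that cuts microRNA precursors, was 1.18 ± 0.10 higher in JQ1 and 0.43 ± 0.11 in dBET6. The dBET6 value of DROSHA lost its call without parental dBET6 library 2 (0.25) and was -0.10 with mitochondrial scaling. ZFR, an RNA-binding zinc finger protein, was 0.86 ± 0.09 higher in JQ1 and 0.88 ± 0.09 in dBET6. BRIX1, a ribosome assembly factor, was 1.25 ± 0.10 higher in JQ1, and its 0.28 ± 0.15 in dBET6 did not pass. DNAJC21, a co-chaperone of ribosome maturation, was 0.95 ± 0.10 higher in JQ1 and 0.94 ± 0.11 in dBET6.

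Of the 5 genes of cytoskeleton and adhesion, 4 were higher in JQ1 (median 0.93) and 5 in dBET6 (median 1.24). MYO10, the myosin of filopodia, stood at 89.8 and 83.5 CPM in the parental and 210.2 and 212 CPM in the resistant libraries in DMSO, at 80.8 and 86.2 against 260.0 and 266 CPM in JQ1, and at 17.2 and 13.6 against 41.98 and 46.6 CPM in dBET6. Both resistant JQ1 libraries were above every other library, and the lines did not overlap. Its line difference was 1.66 ± 0.09 in JQ1 (adjusted p = 5.01e-14, edgeR quasi-likelihood test), 1.52 ± 0.11 in dBET6 and 1.28 ± 0.09 in DMSO. TRIO, a guanine nucleotide exchange factor, stood at 292 and 277 CPM in the parental and 699 and 697 CPM in the resistant libraries in DMSO, at 414 and 399 against 834 and 822 CPM in JQ1, and at 262 and 248 against 837 and 734 CPM in dBET6. The resistant libraries were separated from the parental ones by more than the spread in each treatment, with differences of 1.03 ± 0.09, 1.62 ± 0.09 and 1.29 ± 0.09 in JQ1, dBET6 and DMSO.

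BASP1, a membrane protein of growth cones, stood at 268 and 299 CPM in the parental and 358 and 366 CPM in the resistant libraries in DMSO, at 287 and 303 against 303 and 308 CPM in JQ1, and at 406 and 383 against 801 and 785 CPM in dBET6. In JQ1 the lines touched, with the higher parental library equal to the lower resistant library at 303 CPM to 3 digits, while in dBET6 the lines were well separated. The line difference of BASP1 was 0.05 ± 0.08 in JQ1 (adjusted p = 0.684, edgeR quasi-likelihood test; -0.48 and called lower with mitochondrial scaling), 1.01 ± 0.08 in dBET6 and 0.35 ± 0.08 in DMSO. RAI14, an actin-binding protein, was 0.91 ± 0.08 higher in JQ1 and 0.98 ± 0.08 in dBET6. SPEF2, a ciliary and flagellar protein, was 0.93 ± 0.15 higher in JQ1 and 1.24 ± 0.21 in dBET6.

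Of the 7 genes of metabolism, transport and folding, 7 were higher in JQ1 (median 1.09) and 6 in dBET6 (median 0.67). ANKH, a membrane protein of pyrophosphate and ATP export, stood at 51.1 and 46.5 CPM in the parental and 113 and 115 CPM in the resistant libraries in DMSO, at 39.4 and 39.9 against 114 and 116 CPM in JQ1, and at 89.2 and 75.6 against 309 and 301 CPM in dBET6. Resistant dBET6 libraries were the highest of all, and the lines did not overlap. The line difference of ANKH was 1.53 ± 0.09 in JQ1, 1.89 ± 0.09 in dBET6 (adjusted p = 2.26e-15, edgeR quasi-likelihood test), second to GDNF, and 1.23 ± 0.09 in DMSO. CCT5, a subunit of the cytosolic chaperonin, stood at 396 and 353 CPM in the parental and 657 and 618 CPM in the resistant libraries in DMSO, at 252 and 277 against 558 and 602 CPM in JQ1, and at 276 and 256 against 292 and 337 CPM in dBET6. In dBET6 the lines lay close together although they did not overlap. Its difference was 1.13 ± 0.09 in JQ1 and 0.77 ± 0.09 in DMSO, and 0.24 ± 0.09 in dBET6, where 4 of the fits that left out 1 library lost the call (0.14 to 0.25, without parental dBET6 library 2, resistant dBET6 library 2 or either resistant DMSO library) and scaling to total counts or mitochondrial mRNA gave -0.13 and -0.29.

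OXCT1, the enzyme that starts ketone body use, stood at 92.4 and 82.9 CPM in the parental and 133 and 124 CPM in the resistant libraries in DMSO, at 58.1 and 68.6 against 91.5 and 93.6 CPM in JQ1, and at 144 and 153 against 247 and 278 CPM in dBET6. The lines were separated in each treatment, by 0.55 ± 0.09 in JQ1, 0.82 ± 0.09 in dBET6 and 0.56 ± 0.09 in DMSO. AMACR, a racemase of branched fatty acid breakdown, stood at 6.14 and 5.53 CPM in the parental and 17.8 and 16.9 CPM in the resistant libraries in DMSO, at 11.6 and 12.5 against 28.5 and 30.5 CPM in JQ1, and at 4.61 and 2.85 against 6.73 and 6.11 CPM in dBET6. Its libraries did not overlap between the lines, with differences of 1.29 ± 0.12, 0.77 ± 0.18 and 1.57 ± 0.13 in JQ1, dBET6 and DMSO. SLC1A3, a glutamate transporter, was 0.80 ± 0.11 higher in JQ1 and 0.67 ± 0.17 in dBET6. NUP155, a nuclear pore subunit, was 1.09 ± 0.09 higher in JQ1 and 0.51 ± 0.12 in dBET6, the latter at -0.13 on the log2(FPKM + 1) scale, at -0.15 on the log2(FPKM + 0.1) scale and at -0.04 with mitochondrial scaling.

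NNT, the mitochondrial transhydrogenase that makes NADPH, stood at 18.2 and 14.8 CPM in the parental and 21.8 and 20.4 CPM in the resistant libraries in DMSO, at 6.69 and 7.55 against 10.3 and 9.54 CPM in JQ1, and at 14.1 and 13.4 against 11.95 and 11.8 CPM in dBET6. The resistant libraries were higher in DMSO and JQ1 and lower in dBET6. Its line difference was 0.48 ± 0.13 in JQ1 (adjusted p = 0.0032, edgeR quasi-likelihood test; 0.39 and without a call when parental JQ1 library 1 was left out, -0.05 with mitochondrial scaling), 0.35 ± 0.11 in DMSO and -0.22 ± 0.13 in dBET6, which did not pass the test (adjusted p = 0.202) but was called lower with scaling to total counts (-0.58) or to mitochondrial mRNA (-0.75).

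Among the less well described genes, 2 of 3 were higher in JQ1 and 2 in dBET6. WDR70, a WD repeat protein, stood at 15.9 and 14.3 CPM in the parental and 40.3 and 39.4 CPM in the resistant libraries in DMSO, at 20.3 and 24.9 against 57.3 and 56.3 CPM in JQ1, and at 2.76 and 3.52 against 8.73 and 8.16 CPM in dBET6. Its lines were separated throughout, by 1.33 ± 0.10 in JQ1, 1.43 ± 0.17 in dBET6 and 1.40 ± 0.10 in DMSO. TTC33, a tetratricopeptide repeat protein, stood at 6.34 and 6.46 CPM in the parental and 12.03 and 11.2 CPM in the resistant libraries in DMSO, at 4.04 and 5.19 against 8.05 and 6.44 CPM in JQ1, and at 2.76 and 2.95 against 6.05 and 6.67 CPM in dBET6. The resistant libraries were above the parental ones, by 0.65 ± 0.15 in JQ1 (0.49 and no call without resistant JQ1 library 1) and 1.16 ± 0.19 in dBET6. CARD6, a protein with a caspase recruitment domain, stood at 7.34 and 5.92 CPM in the parental and 9.39 and 9.47 CPM in the resistant libraries in DMSO, at 1.77 and 2.48 against 2.85 and 2.58 CPM in JQ1, and at 0.761 and 0.829 against 0.893 and 0.685 CPM in dBET6. The lines overlapped in dBET6, and neither 0.36 ± 0.20 in JQ1 nor -0.02 ± 0.37 in dBET6 passed the test.

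The DMSO libraries on which the list was selected are also the baseline of the drug responses. The genes of the background were not selected on them. The counts and medians over the list are therefore a description here and nothing is read from them. Calls of single genes rest on the same baseline and are a description too. With JQ1 in parental cells 19 of 38 fell and 6 rose against DMSO, where 26.1% of all genes fell and 22.8% rose. In resistant cells 19 fell and 5 rose, where 23.1% of all genes fell and 20.8% rose. The median log2 changes of the list were -0.32 and -0.19, against 0.01 in both lines over all genes, and among the other 68 protein-coding 5p genes 16 fell and 19 rose in parental and 12 fell and 20 rose in resistant cells. The medians of the list moved with the settings. With only genes of at least 10 CPM they were -0.080 and -0.0040, with 12 lower in resistant cells, and on log2(FPKM + 1) with limma they were -0.16 and -0.068. The resistant median was -0.087 without the FPKM floor and -0.030 with a floor of 5. With mitochondrial scaling the medians were -0.61 and -0.77, with 0 higher and 29 lower in resistant cells.

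The largest falls with JQ1 in parental cells, and among the largest in resistant cells, were those of IL7R (-3.90 ± 0.33 in parental and -1.71 ± 0.40 in resistant cells), FBXO4 (-1.85 ± 0.16 and -1.68 ± 0.14) and CARD6 (-1.65 ± 0.18 and -1.79 ± 0.17). IL7R in resistant cells started from under 1 CPM. PRLR fell in resistant cells (-1.68 ± 0.62, adjusted p = 0.0285, edgeR quasi-likelihood test), a call that was lost without resistant DMSO library 2 or resistant JQ1 library 2 (-1.33 and -1.22). The DMSO libraries that start this fall of PRLR are also those that kept it on the list. Their FPKM was 0.991 and 1.44 in the resistant and 0.648 and 0.410 in the parental line. NNT fell by a similar amount in both lines (-1.22 ± 0.12 and -1.09 ± 0.12). AMACR rose in both (1.04 ± 0.14 and 0.77 ± 0.12). WDR70 (0.58 ± 0.11 and 0.51 ± 0.10), TRIO (0.51 ± 0.08 and 0.25 ± 0.08) and DAB2 (0.47 ± 0.08 and 0.43 ± 0.08) rose as well, and their values in resistant cells turned to -0.07, -0.33 and -0.15 with mitochondrial scaling. The TRIO value in resistant cells also lost its call without any 1 of the resistant DMSO and JQ1 libraries (0.24 to 0.25). SUB1 stood at -0.00 and 0.01, without a call in either line (-0.57 and called in resistant cells with mitochondrial scaling).

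With dBET6, against the same baseline, 30 of 38 fell and 4 rose in parental cells, against 39.3% and 37% of all genes, and in resistant cells 29 fell and 4 rose, against 39.5% and 35.7%. The medians were -1.26 and -1.29, where all genes had -0.01 and -0.06 and all protein-coding genes -0.26 and -0.29. The other 68 protein-coding 5p genes had medians of -0.50 and -0.31, with 33 lower in each line. Without the FPKM floor the medians of the list were -1.08 and -1.20, and with a floor of 5 they were -1.60 and -1.57. The dBET6 and JQ1 responses of a line share its DMSO libraries, so these values stand side by side only.

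GOLPH3 fell most, with a log2 change of -3.61 ± 0.12 in parental and -3.87 ± 0.12 in resistant cells (adjusted p = 1.32e-19 and 1.1e-20, edgeR quasi-likelihood test). CARD6 (-3.06 ± 0.24 and -3.58 ± 0.25), DAB2 (-2.92 ± 0.10 and -2.71 ± 0.09) and BRIX1 (-2.80 ± 0.12 and -3.41 ± 0.12) fell strongly as well. NPR3 rose in both lines, by 2.60 ± 0.19 and 2.50 ± 0.16. ANKH (0.76 ± 0.09 and 1.41 ± 0.09), OXCT1 (0.76 ± 0.09 and 1.03 ± 0.09) and BASP1 (0.48 ± 0.08 and 1.13 ± 0.08) were higher with TMM scaling, and each was lower with mitochondrial scaling (-0.65 to -1.30). With total counts BASP1 was lower in parental cells (-0.16) and OXCT1 stood at -0.05 in resistant cells. SUB1 showed no call in either line (-0.16 ± 0.09 and -0.19 ± 0.09), and was called higher in both (0.21 and 0.21) when only genes with a mean of at least 10 CPM were kept. Set directly against JQ1, a comparison chosen after seeing the data, dBET6 gave 26 lower and 7 higher of the 38 genes in parental cells (all genes 38.4% and 36.2%) and 26 lower and 5 higher in resistant cells (38.8% and 35.4%).

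**Figure D5:**
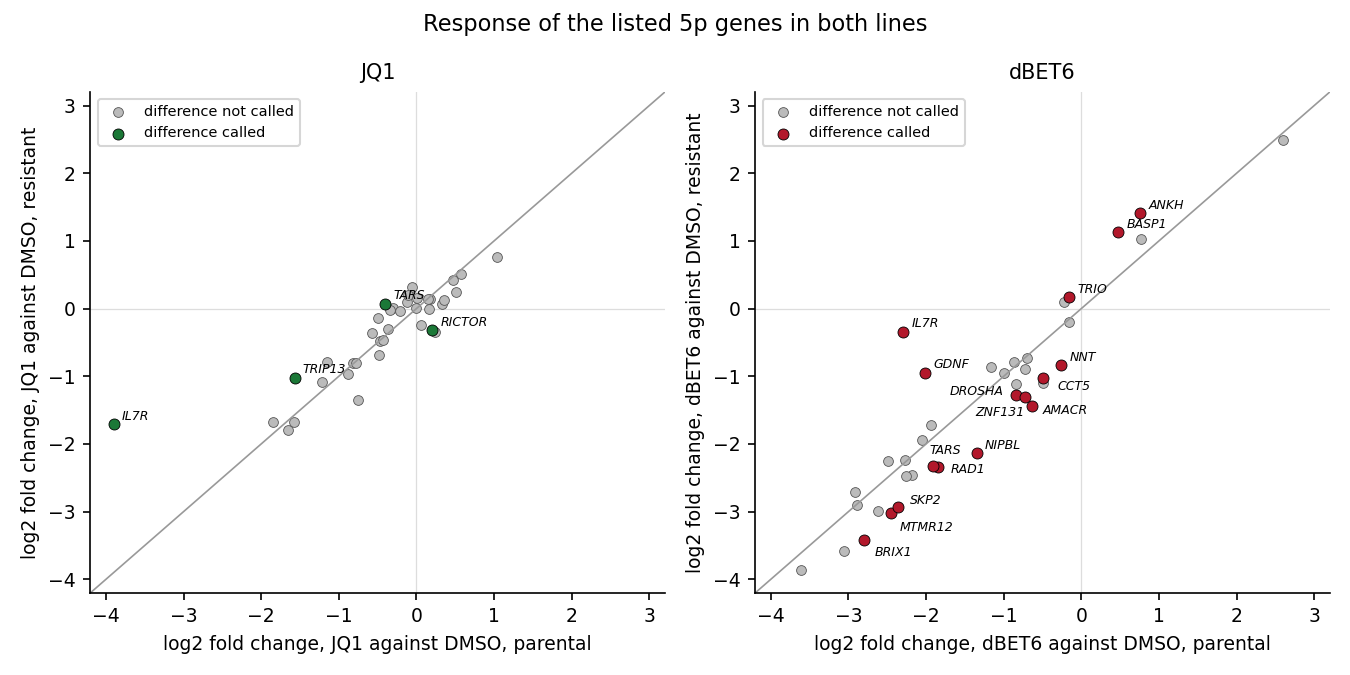
Each point is 1 of the 38 genes, with its log2 change against DMSO in parental cells on the horizontal and in resistant cells on the vertical axis, for JQ1 on the left and dBET6 on the right. The points follow the line of equal response, coloured points are the 4 genes (JQ1) and 16 genes (dBET6) whose responses were called different between the lines, and IL7R is farthest from the line in both panels.

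2 pairs of these genes start head to head, which lets the response of neighbours be compared. RAD1 and BRIX1 are transcribed away from each other from starts 207 bases apart, and LMBRD2 and SKP2 from starts 224 bases apart, in RefSeq's annotation of GRCh38.p14. The windows below run from 250 bases before to 50 bases after the start of the forward gene and are shown because each also holds most of its neighbour's window (294 and 277 of 300 bases). Capitals mark 3 motifs on either strand, which do not overlap one another here: CCGGAA, a core of ETS factor sites, then GGGCGG, a core of SP factor sites, and then AAGATGGC, a core of YY1 sites.
BRIX1 window, chr5:34915461-34915760, plus strand: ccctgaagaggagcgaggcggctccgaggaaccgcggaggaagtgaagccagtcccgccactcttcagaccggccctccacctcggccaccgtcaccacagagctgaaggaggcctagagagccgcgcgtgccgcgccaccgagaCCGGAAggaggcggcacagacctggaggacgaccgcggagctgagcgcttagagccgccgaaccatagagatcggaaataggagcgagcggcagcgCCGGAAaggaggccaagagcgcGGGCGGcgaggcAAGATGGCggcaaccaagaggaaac
SKP2 window, chr5:36151861-36152160, plus strand: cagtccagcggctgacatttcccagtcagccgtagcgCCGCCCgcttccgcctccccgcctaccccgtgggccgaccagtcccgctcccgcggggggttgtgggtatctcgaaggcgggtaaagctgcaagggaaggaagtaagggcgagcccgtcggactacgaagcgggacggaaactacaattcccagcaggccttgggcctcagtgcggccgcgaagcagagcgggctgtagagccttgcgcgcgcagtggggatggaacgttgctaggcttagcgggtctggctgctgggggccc
The BRIX1 window holds CCGGAA at 2 places, GGGCGG at 1 and AAGATGGC at 1, and the SKP2 window holds GGGCGG at 1 place. Over 35116 windows of the same length, 17.2% hold CCGGAA, 45% GGGCGG and 2.89% AAGATGGC, and a match is a description of the letters, not a bound site.

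BRIX1 stood at 41.4 and 37.5 CPM in the parental and 76.5 and 69.7 CPM in the resistant libraries in DMSO, at 16.7 and 18.9 against 44.6 and 40.3 CPM in JQ1, and at 5.90 and 5.39 against 6.60 and 7.10 CPM in dBET6. RAD1 stood at 21.2 and 22.7 CPM in the parental and 46.1 and 43.2 CPM in the resistant libraries in DMSO, at 19.6 and 20.6 against 48.6 and 47.1 CPM in JQ1, and at 5.09 and 7.15 against 8.73 and 8.91 CPM in dBET6. The resistant libraries of both genes lay above the parental ones, with a small gap for BRIX1 in dBET6. BRIX1 fell with JQ1 in both lines (-1.15 ± 0.10 and -0.79 ± 0.09), whereas RAD1 gave -0.13 ± 0.10 and 0.10 ± 0.10, neither called (-0.48 and called in resistant cells with mitochondrial scaling). With dBET6 both fell, BRIX1 by -2.80 ± 0.12 and -3.41 ± 0.12, RAD1 by -1.85 ± 0.12 and -2.34 ± 0.12. Their annotated transcripts overlap on opposite strands and the labels do not say whether the libraries kept the strand, so reads of the overlap could not be told apart.

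SKP2 stood at 25.6 and 24.8 CPM in the parental and 44.7 and 42.6 CPM in the resistant libraries in DMSO, at 14.1 and 15.3 against 25.1 and 24.9 CPM in JQ1, and at 4.80 and 4.97 against 5.56 and 5.92 CPM in dBET6. LMBRD2 stood at 16.1 and 13.99 CPM in the parental and 38.9 and 37.7 CPM in the resistant libraries in DMSO, at 16.9 and 20.97 against 43.3 and 37.1 CPM in JQ1, and at 6.75 and 8.39 against 18.8 and 20.9 CPM in dBET6. For this pair as well the lines did not overlap, with the smallest gap for SKP2 in dBET6. SKP2 fell with JQ1 in both lines (-0.78 ± 0.10 and -0.81 ± 0.09), whereas LMBRD2 was higher in parental cells (0.33 ± 0.12, adjusted p = 0.0231, edgeR quasi-likelihood test, without a call when parental DMSO library 2 or parental JQ1 library 2 was left out, at 0.22 and 0.16) and had 0.07 ± 0.11 in resistant cells (-0.52 and called with mitochondrial scaling). With dBET6 SKP2 fell (-2.37 ± 0.12 and -2.92 ± 0.12) and so did LMBRD2 (-0.99 ± 0.14 and -0.95 ± 0.12). The difference in response within a pair was not tested.

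Whether a treatment acted differently on the lines was tested as the difference between their responses. The DMSO libraries of the rule enter this difference as well. Its counts and calls over the list are therefore a description, and nothing is read from them. A difference in JQ1 response was called for 4 of 38, 3 higher and 1 lower in resistant cells, against 3.62% and 2.88% of all genes. A difference in dBET6 response was called for 16, 5 higher and 11 lower, against 13.7% and 14.2%. The count of 11 was 4 without resistant DMSO library 1, 6 without resistant dBET6 library 1 and 7 without resistant dBET6 library 2. Scaling to total counts gave 2 higher and 20 lower, mitochondrial scaling 0 and 7, and limma 6 lower on log2(FPKM + 1) and 4 on log2(FPKM + 0.1). In JQ1 the 3 higher calls became 0 without parental DMSO library 1, resistant DMSO library 2 or resistant JQ1 library 2, and were 0 with mitochondrial scaling and with limma.

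NIPBL, the cohesin loader, stood at 48.4 and 41.9 CPM in the parental and 109 and 100.1 CPM in the resistant libraries in DMSO, at 54.3 and 61.1 against 116 and 112 CPM in JQ1, and at 16.9 and 18.6 against 22.6 and 24.99 CPM in dBET6. The gap between the lines was narrower in dBET6 than in DMSO. Its response to dBET6 was -1.35 ± 0.10 in parental and -2.13 ± 0.10 in resistant cells, a difference of -0.78 ± 0.14 (adjusted p = 0.000163, edgeR quasi-likelihood test), without a call with limma on log2(FPKM + 0.1), at -0.49. AMACR (-0.80 ± 0.23, no call without parental dBET6 library 1, at -0.40) and BRIX1 (-0.61 ± 0.17, no call without parental dBET6 library 1 or resistant DMSO library 1, at -0.54 and -0.54) were also lower in resistant cells by this measure, and neither was called with limma. GDNF had the opposite sign (1.07 ± 0.19), with a fall of -2.01 ± 0.15 in parental and -0.95 ± 0.11 in resistant cells, and no call with mitochondrial scaling (0.76). ANKH had 0.66 ± 0.12, without a call with total counts or mitochondrial scaling (0.22 and 0.37). A response difference is also the line difference under the compound minus that in DMSO, so these are not separate results from the line differences above.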

How the data were processed

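PolyA RNA of 12 U87 libraries was analysed. The deposited files per library hold estimated counts, TPM values and effective lengths per transcript, per the file headers, and are not normalized between libraries. The deposited FPKM values form 1 table of genes. The submitters' processing notes name kallisto, DESeq2 and build hg19, and for their versions, the strand setting and the way FPKM was computed the entry is: not given in the sources used here. The deposited TPM values served only to describe which transcripts made up a gene.

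Transcripts were paired with genes through GENCODE release 29, which covered 92.1% of transcripts and 94.7% to 96.2% of the counts. For 32 of the 38 genes the rebuilt value lay within 1% of the deposited FPKM. ANKH, TARS, AMACR, PRLR and ZNF131 were rebuilt in part (0.906, 0.915, 0.807, 0.864 and 0.933 of it). For each gene the estimated counts of its transcripts were added and rounded. The 19093 genes that filterByExpr kept went into 1 robust quasi-likelihood fit of edgeR 4.0.16 (R 4.3.3) with TMM factors, all 12 libraries, 1 mean for each of the 6 groups and 6 residual degrees of freedom. In each comparison Benjamini-Hochberg adjustment ran over all these genes, and 0.05 was the threshold. The biological coefficient of variation was 7.88%. Libraries of a group had an r of 0.982 to 0.994 across genes, and differed by more than sampling of reads gives (chi-square divided by its degrees of freedom 4.34 to 12.3). Errors beside log2 fold changes are SE with 2 libraries per group, worked out from the fold change and the test statistic. In that fit the spread of each gene is drawn towards that of all genes. Neither the SE nor the p-values are therefore the replicate spread of the gene alone.

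The members, role groups and lists were chosen with earlier results of these data known. Every kept gene is named with its line difference. Values in every library are given for the 2 genes with the highest FPKM of each role group, for the 3 largest and 3 smallest line differences in JQ1 and in dBET6, for the 3 largest and 3 smallest called values of each drug response and response difference, and, chosen after their values were seen, for RAD1, SKP2 and LMBRD2 as partners in head-to-head pairs. Of the other protein-coding 5p genes with an average of at least 10 CPM, the 3 largest and 3 smallest called line differences in JQ1 are named. The order along the arm and the arm of each gene come from GENCODE 29, and the files' own build was not used for positions. In a simulation of the line difference in JQ1 with 19093 genes, 67.2%, 88.1% and 100% of 1.5-, 2- and 4-fold changes were recovered and 9.57% of calls were false. Only 67, 67 and 66 genes were changed there, each averaging at least 1 CPM, and all other genes had equal means. In the data 16.8% of genes were called higher and 19% lower, so these shares do not carry over to the data. Alternatives were other size factors (DESeq2's median of ratios in edgeR, total counts, the 13 mitochondrial mRNAs), the Wald test of DESeq2 1.42.0, a filter at an average of 10 CPM or none, limma-trend 3.58.1 on log2 FPKM (pseudocount 1 or 0.1, average FPKM 1 or more), a fit of the compared libraries alone, the replicate number as a block, each library left out in turn, and no FPKM floor or a floor of 5. The 6 groups along the arm and the direct comparison of both compounds were added after seeing the data.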

Additional observations from a re-analysis of the deposited data

Results flagged for a closer look

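For 20 results the test of the difference between the lines' responses (resistant minus parental, log2, edgeR quasi-likelihood test, Benjamini-Hochberg adjusted p under 0.05) was passed. That difference contains the DMSO libraries on which the list was selected, so these calls are given as a description. In JQ1 these were IL7R at 2.19, TRIP13 at 0.55, TARS at 0.48 and RICTOR at -0.52. With 1 of the 12 libraries left out at a time, TRIP13 and RICTOR were called in 9 of 12 fits, IL7R in 8 and TARS in 7. TRIP13 lost its call without parental DMSO library 1 (0.47), resistant DMSO library 2 (0.53) or resistant JQ1 library 2 (0.51). RICTOR lost it without parental JQ1 library 2 (-0.44), resistant DMSO library 1 (-0.45) or resistant JQ1 library 2 (-0.47). IL7R lost it without parental DMSO library 1 (2.09), parental JQ1 library 2 (1.90), resistant DMSO library 2 (2.07) or resistant JQ1 library 2 (1.62). TARS lost it without parental DMSO library 1 (0.37), parental JQ1 library 1 (0.40), resistant DMSO library 2 (0.43) or either resistant JQ1 library (0.51 and 0.44). None of the 4 was called with mitochondrial scaling or with limma on log2 FPKM.

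In dBET6 the differences above 0 were IL7R at 1.96, GDNF at 1.07, ANKH at 0.66, BASP1 at 0.66 and TRIO at 0.33. Those below 0 were AMACR at -0.80, NIPBL at -0.78, BRIX1 at -0.61, ZNF131 at -0.59, NNT at -0.57, MTMR12 at -0.57, SKP2 at -0.56, CCT5 at -0.53, RAD1 at -0.49, DROSHA at -0.44 and TARS at -0.42. CCT5, GDNF, ANKH, BASP1 and NIPBL were called in 12 of 12 fits without 1 library, and CCT5 also in each of 10 other settings. AMACR lost its call without parental dBET6 library 1 (-0.40) and IL7R without resistant dBET6 library 2 (1.85). BRIX1, MTMR12 and SKP2 were called in 10 fits, ZNF131 in 9, NNT and TARS in 8, DROSHA in 6, and RAD1 and TRIO in 4. Parental dBET6 library 1 and 2, resistant dBET6 library 1 and 2, and both resistant DMSO libraries each ended at least 1 of these calls, as did both parental DMSO libraries, and for RAD1 and TRIO JQ1 libraries as well.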

How the results depend on the processing

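Of 188 tested results on single genes, 95 were unchanged in every setting that tested the gene. Unchanged means that no call was gained or lost and that no value with a call in either fit changed sign. A sign change between 2 values without a call counted as unchanged and is not listed below. With 1 library left out, 33 to 34 genes were higher in JQ1 (median 1.06 to 1.15), 29 to 32 in dBET6 (median 0.77 to 0.93) and 34 to 37 in DMSO (median 1.00 to 1.09), with 0, 0 and 1 lower, of which the DMSO values are a description. A lone library left in a group is assumed there to vary like the other groups. The JQ1 responses then had 4 to 6 genes higher and 16 to 19 lower in parental (median -0.35 to -0.22) and 3 to 6 higher and 15 to 19 lower in resistant cells (median -0.21 to -0.16). The dBET6 responses had 4 higher and 29 to 33 lower in parental (median -1.71 to -1.24) and 4 higher and 29 to 30 lower in resistant cells (median -1.42 to -1.29). The JQ1 response difference had 0 to 4 higher and 0 to 2 lower (median -0.074 to 0.10) and the dBET6 one 4 to 7 higher and 4 to 11 lower (median -0.22 to 0.027). dBET6 against JQ1 gave 7 higher and 26 to 27 lower in parental, 4 to 5 higher and 25 to 26 lower in resistant cells. The 5 genes higher with JQ1 in resistant cells were 3 without resistant JQ1 library 2. The single gene lower in the JQ1 response difference became 2 without parental DMSO library 2 and 0 without parental JQ1 library 2, resistant DMSO library 1 or resistant JQ1 library 2.

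Scaling to the 13 mitochondrial mRNAs, whose share differed between groups, moved the median of all genes to -0.23 (DMSO), -0.50 (JQ1) and -0.60 (dBET6) in the line differences, to -0.28 and -0.56 in the parental and resistant JQ1 responses, to -1.78 and -2.12 in the dBET6 responses, and to -0.28 and -0.34 in the JQ1 and dBET6 response differences. The medians of the 38 genes were then 0.85, 0.56, 0.29, -0.61, -0.77, -3.02, -3.37, -0.31 and -0.42 in the same order. The counts were 21 higher and 1 lower for the line difference in JQ1, 13 and 1 in dBET6, 1 higher with JQ1 in parental cells, 0 higher and 29 lower in resistant cells, 1 and 0 higher with dBET6, 0 and 0 for the JQ1 response difference, 0 and 7 for the dBET6 one, and 1 higher in each line for dBET6 against JQ1. Sign changes are listed here only for results called with TMM or with mitochondrial scaling. In the line differences these were NNT (-0.048) and BASP1 (-0.48) in JQ1. In dBET6 they were TRIP13 (-0.16), DROSHA (-0.10), RAD1 (-0.025), NUP155 (-0.041), CCT5 (-0.29), NIPBL (-0.12) and ZNF131 (-0.046). OXCT1 (-0.99 and -1.04), ANKH (-1.02 and -0.65) and BASP1 (-1.30 and -0.93) turned in the dBET6 responses of parental and resistant cells. TRIO (-0.33), WDR70 (-0.068), SUB1 (-0.57), RAD1 (-0.48), DAB2 (-0.15) and LMBRD2 (-0.52) turned in the JQ1 response of resistant cells.

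With total counts the median of all genes was -0.43 for the line difference in dBET6, -0.10 and -0.17 for the JQ1 responses, -0.65 and -1.14 for the dBET6 responses and -0.49 for the dBET6 response difference. The 38 genes had medians of 1.16 (DMSO), 0.47 (dBET6), -0.44 and -0.38 (JQ1 responses), -1.89 and -2.37 (dBET6 responses) and -0.57 (dBET6 response difference). In dBET6 1 gene was lower in the resistant line, 3 were higher with JQ1 in resistant cells, 1 and 2 were higher with dBET6, 2 were lower in the JQ1 response difference, and 2 were higher and 20 lower in the dBET6 one. Of the results called with TMM or with total counts, CCT5 (-0.13, line difference in dBET6) and BASP1 (-0.16, parental dBET6 response) turned sign. So did OXCT1 (-0.050, resistant dBET6 response) and TRIO (-0.11, dBET6 response difference). With median-of-ratios size factors the dBET6 responses had medians of -1.13 and -1.11 (all genes 0.11 and 0.11), and dBET6 against JQ1 gave 8 higher in resistant cells. DESeq2's Wald test gave -1.13 and -1.11, 2 lower in the JQ1 response difference, and 8.

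With no filter the medians were 0.76 (line difference in dBET6), -1.40 and -1.51 (dBET6 responses). With a mean of at least 10 CPM, which leaves fewer of the genes, they were 0.91, -0.98 and -1.04, with -0.080 and -0.0040 for the JQ1 responses, 0 lower in DMSO, 12 lower with JQ1 in resistant cells, 2 lower in the JQ1 response difference and 9 higher for dBET6 against JQ1 in resistant cells, and SUB1 turned to 0.21 and 0.21 in the dBET6 responses. On log2(FPKM + 1) the medians were 0.89 (DMSO), 0.98 (JQ1), 0.70 (dBET6), -0.16 and -0.068 (JQ1 responses), -0.90 and -1.05 (dBET6 responses) and -0.31 (dBET6 response difference), with 3 and 2 higher with JQ1, 0 higher and 6 lower in the JQ1 and dBET6 response differences, 8 higher for dBET6 against JQ1 in resistant cells, and NUP155 at -0.13. On log2(FPKM + 0.1) they were 1.00, 1.01, -0.19 and -0.072, -1.03 and -1.06, with 0 lower in DMSO, 3 and 2 higher with JQ1, 0 higher and 4 lower in the response differences, 8 and NUP155 at -0.15. Only the libraries compared gave -1.17 for the resistant dBET6 response. Without an FPKM floor the dBET6 responses had -1.08 and -1.20 and the resistant JQ1 response -0.087, and with a floor of 5 they had -1.60, -1.57 and -0.030. The causes of these changes were not tested.

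Libraries with the same replicate number had deviations correlated between -0.058 and 0.061, so no shared effect of that number was seen. Whether such libraries were handled together cannot be told from these values. With the replicate block 34 genes were higher in JQ1, 32 in dBET6 and 36 in DMSO, with medians of 1.08, 0.84 and 1.09, and no count of calls moved by more than 1. The depth leaves PRLR and IL7R under 1 CPM in most libraries, so their values rest on few reads.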

Other observations

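The transcripts that made up TRIO changed with dBET6 although its summed counts did not pass the test. The counts-based response was -0.16 ± 0.09 in parental and 0.17 ± 0.08 in resistant cells. The deposited FPKM of TRIO rose from 51.7 and 52.0 to 120 and 137 in parental and from 159 and 159 to 525 and 467 in resistant libraries. The mean effective length of its counted transcripts in dBET6 was 0.352 times that in DMSO in parental and 0.356 times in resistant cells. TRIO-207, annotated as a retained intron transcript of 605 bases, took 47.3% to 57.5% of the TPM of TRIO in the 4 dBET6 libraries against 0.907% to 21.9% in the 4 DMSO libraries. TRIO-202, a coding transcript of 11100 bases, took 9.36% to 13.5% against 29.7% to 40.6%. TRIO was chosen after its values were seen, and no test was made. Shorter mean lengths in dBET6 were not particular to TRIO. The same ratio was 0.655 and 0.543 for NIPBL and 0.681 and 0.644 for GOLPH3 in parental and resistant cells. It was 1.03 and 1.04 for TARS. Summed over all genes, deposited FPKM was 649818 to 685757 in DMSO and 1.71e+06 to 2.30e+06 in dBET6 libraries. The part of that shift in the TRIO values was not tested.

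For NUP155 the line difference in dBET6 was 0.51 ± 0.12 on counts and -0.13 on the log2(FPKM + 1) scale. Its retained intron transcript NUP155-208 took 32.4% and 20.6% of its TPM in the parental and 0% and 14.8% in the resistant dBET6 libraries. The mean effective length of DAB2 in dBET6 was 0.431 and 0.578 times that in DMSO in parental and resistant cells. For IL7R it was 1776 and 1765 bases in the parental DMSO libraries and 595 and 861 bases in the resistant DMSO libraries.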
